A study of Mus musculus with 4 samples.

Results

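The response of Cdk5r1 knockout macrophages to lipopolysaccharide (LPS) was read from the knockout RNA alone, the Cy5 channel of 4 Agilent arrays with 2 colours each. The 2 LPS arrays were set against the 2 basal arrays, 4 of the 8 labelled samples of the series. All 39429 probes that are not controls were taken, and 21239 genes were bright enough in Cy5 to be tested, with a symbol for 14751. Cells of both groups came from the bone marrow of male mice, 6 weeks old, of the strain B6.129S4-Cdk5r1tm1Lht/J, and the Cy5 RNA carried the genotype CDK5R1 knockout on every array. Marrow cells had been cultured over 7 days in RPMI holding 25 ng/ml GM-CSF. The LPS group received E. coli LPS at 100 ng/ml for 6 h, while the labels give no treatment for the basal group. The Cy3 channel of each array held RNA of wildtype cells under the same condition and serves here only for the comparison of genotypes. The labels give the wildtype cells the same strain name as the knockout cells. Bone marrow grown in GM-CSF is not a pure macrophage culture, every cell of the mouse carries the deletion, and no rescue or second knockout line was analysed here. The labels call the 2 arrays of a condition biological replicates without naming the animals, so the p-values measure the spread between these samples, which may be technical.

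LPS is sensed at the macrophage surface by CD14, MD-2 and TLR4. An adaptor branch through MyD88 activates NF-kappaB and MAP kinases and the cytokine genes they serve, and a branch through TRIF activates IRF3 and interferon beta, which then acts back on the cells through its own receptor. The product of Cdk5r1 is p35, which binds and activates CDK5, a kinase best known from neurons.

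The promoters of the 4 genes with a symbol that rose most are printed here, since elements of both classes marked in them are known to serve the branches named above. Each stretch is the 250 bases before the start of the gene, 5′ to 3′ on the gene's strand, from RefSeq on GRCm38.p6. Capitals mark the core of the interferon-stimulated response element or a loose kappaB core, searched on both strands, and kappaB matches may overlap each other. The windows are chr5:30012864-30013113 (plus strand) for Il6, chr5:114922990-114923239 (plus) for Oasl1, chr12:26456453-26456702 (minus) for Rsad2 and chr5:92348890-92349139 (minus) for Cxcl10.
Il6: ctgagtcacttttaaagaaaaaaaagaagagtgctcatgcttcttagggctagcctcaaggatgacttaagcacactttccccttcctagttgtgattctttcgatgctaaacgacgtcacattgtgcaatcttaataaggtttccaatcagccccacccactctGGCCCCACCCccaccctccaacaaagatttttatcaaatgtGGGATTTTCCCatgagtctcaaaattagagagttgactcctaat
Oasl1: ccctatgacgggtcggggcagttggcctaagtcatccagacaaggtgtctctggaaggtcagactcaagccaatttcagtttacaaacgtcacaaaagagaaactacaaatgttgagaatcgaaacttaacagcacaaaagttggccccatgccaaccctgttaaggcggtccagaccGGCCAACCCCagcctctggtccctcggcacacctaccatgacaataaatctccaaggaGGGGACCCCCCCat
Rsad2: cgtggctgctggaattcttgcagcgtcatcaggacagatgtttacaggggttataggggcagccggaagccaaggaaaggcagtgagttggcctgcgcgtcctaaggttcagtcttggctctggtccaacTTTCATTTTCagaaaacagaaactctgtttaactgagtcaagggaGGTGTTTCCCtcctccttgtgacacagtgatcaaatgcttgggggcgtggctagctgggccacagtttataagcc
Cxcl10: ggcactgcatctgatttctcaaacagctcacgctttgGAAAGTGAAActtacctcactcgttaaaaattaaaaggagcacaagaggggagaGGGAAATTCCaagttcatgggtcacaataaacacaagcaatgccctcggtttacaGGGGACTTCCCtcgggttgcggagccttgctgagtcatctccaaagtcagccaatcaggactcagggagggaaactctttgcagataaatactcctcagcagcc
Rsad2 and Cxcl10 each held 1 interferon element core, 110 and 203 bases before the start, and neither Il6 nor Oasl1 held one in this window. Il6 held 3 kappaB cores, the overlapping ones 33 and 34 bases before the start, Cxcl10 also held 3, Oasl1 held 4 and Rsad2 held 1. This loose core was in 62.4% of all promoters searched.

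Levels are log2 Cy5 intensities after background correction with an offset of 50, so a gene without signal lies near 6 and its fold is compressed. Across genes, the basal pair had r = 0.9956, the LPS pair 0.9921, and pairs of different conditions 0.918 to 0.931, though genes are not independent replicates. On each array 62.1% to 65% of probe spots were well above background in Cy5, with a median intensity of 116 to 145.5 over a background of 46 to 48, and no spot was saturated. All arrays came from 1 slide and 1 scan. With 2 arrays per condition, their number limits the precision of every value. Each change is LPS minus basal on the log2 scale ± SE of the moderated limma fit, with n = 2 arrays per condition, and each adjusted p is limma's, by the Benjamini-Hochberg method over all 21239 genes with a threshold of 0.05.

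In the knockout channel the targeted gene kept signal. Cdk5r1 stood at 9.21 and 9.20 at rest and 8.81 and 9.64 with LPS, well above background throughout, and its change with LPS was 0.02 ± 0.29 (adjusted p = 0.96), or 0.44 and past the test without LPS replicate 1. Its other kept probe gave a change of 0.22. The files do not say where these probes sit relative to the deletion, so the levels do not check the genotype.

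The cells carried the markers of their label on every array. All 9 measured macrophage markers were well above background on all 4 arrays, among them Adgre1, which encodes F4/80, at 14.13 and 13.63 at rest and 13.91 and 13.57 with LPS, and Csf1r, the receptor for M-CSF, at 17.29 and 17.01 at rest and 15.33 and 14.47 with LPS. Summed on the linear scale, the list stood at 291800 and 235200 at rest and at 162700 and 121100 with LPS, mostly through the fall of Csf1r. Fewer cells of a type and less RNA per cell cannot be told apart in such samples.

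Markers of other cell types were present too, and some of them moved with LPS. The dendritic cell list summed to 213400 and 226100 at rest and 320000 and 356100 with LPS, mostly through the rise of Ccr7. Its members were mixed, as 4 of 9 measured rose and 4 fell, with a median change of -0.06. Zbtb46, a transcription factor of that lineage, went from 7.31 and 7.57 to 13.05 and 12.68, but by only 1.27 by its other kept probe. Neutrophil markers summed to 46980 and 76520 at rest and 98760 and 95310 with LPS, and 5 of 8 measured rose, with the granule genes Camp (2.61 ± 0.19) and Ngp (2.21 ± 0.18) ahead. The sum for eosinophils, mast cells and basophils went from 9635 and 10660 to 32460 and 42580, nearly all of it through Hdc (6.74 ± 0.20), the enzyme that makes histamine, while Fcer1a and Ms4a2 did not pass the filter on dim probes. B cell markers summed to 6554 and 8887 at rest and 25160 and 26860 with LPS, mostly through the adaptor Blnk (1.84 ± 0.19), with Pax5 and Ebf1 below the filter. Sums for T and NK cells were 8670 to 9933 at rest and 13270 to 13670 with LPS, and 3 of 6 measured markers rose, with changes up to 3.45. Erythroid cells and platelets summed to 9002 to 13200 over all arrays, with 1 of 5 markers higher and changes up to 2.54. Stromal cells summed to 1637 to 2073, with 2 of 8 higher (25%) and 1 lower (12.5%). Over all genes tested 21.1% rose and 24.4% fell. The shares of rises for erythroid cells and platelets (20%) and for stromal cells lay near the former. The defining genes Cd3g, Ncr1, Alas2, Pdgfra and Col3a1 of these cell types did not pass the filter. The part of these cell types in the results that follow was not tested.

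LPS changed the knockout cells broadly. In limma, 4487 genes rose (21.1% of those tested) and 5182 fell (24.4%). The counts of each gene list below are to be set against these shares. Against a change of more than 2-fold, tested with limma's treat, 950 genes were higher (4.47%) and 632 were lower (2.98%). Of 2107 called genes with several kept probes, 1850 moved the same way by all of them. The median change over all genes was -0.017, and the middle 90% of genes lay between -1.58 and 1.72. Signal well above background on both LPS arrays and neither basal array was found for 555 genes, of which 321 rose, and the reverse for 692, of which 319 fell. The counts rest on the basal pair: without basal replicate 1, 2322 genes rose and 2435 fell, and without basal replicate 2, 1983 rose and 2082 fell. Under scaling of the processed signals to the 75th percentile, which moved the median of all genes to 0.23, 57.6% of the called genes were higher, against 46.4% here, and under median centring of Cy5 alone 46.5% of the genes past 2-fold were higher, against 60.1%.

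**Figure D1:**
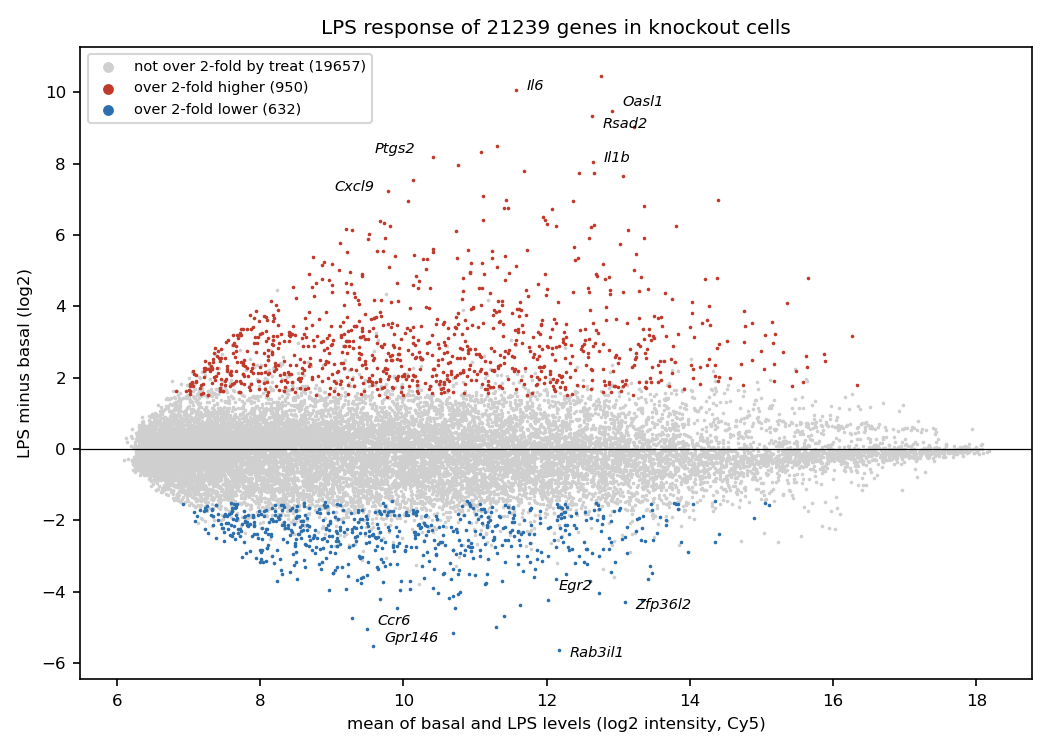
Change with LPS (vertical, log2) against the mean level (horizontal, log2 Cy5 intensity) for the 21239 genes tested in knockout cells, with 1 point per gene. Red points are the 950 genes over 2-fold higher and blue points the 632 over 2-fold lower by limma's treat, and among genes with a symbol the rises reach 10.07 for Il6 and the falls -5.64 for Rab3il1; the point above Il6 has no symbol here.

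Among genes with a symbol and signal well above background on every array, the largest rise was that of Il6, the cytokine interleukin 6. Its level was 6.57 and 6.51 at rest and 16.73 and 16.49 with LPS, a rise of 10.07 ± 0.13, or 1073-fold (adjusted p = 0.000274). The next were antiviral genes: Oasl1, of the oligoadenylate synthetase family, went from 8.59 and 7.76 to 17.70 and 17.62, and Rsad2, which encodes viperin, from 8.50 and 7.43 to 17.41 and 17.20. Cxcl10, a chemokine for activated T cells, went from 9.01 and 8.41 to 17.73 and 17.71. For each of these genes the LPS arrays lay far beyond the basal ones, and for Oasl1, Rsad2 and Cxcl10 basal replicate 1 was above basal replicate 2. The other 11 of the 15 largest rises lay between 6.74 and 8.48 and held Ifit1, Cmpk2, Il1b, Ifit2, Ifit3, Ifi211, Acod1, Isg15, Tgtp2, Tnfsf15 and Hdc. Tgtp2 rose by only 1.84 by its other kept probe.

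Among the same genes, falls were smaller. Rab3il1, an activator of the small GTPase RAB3A, stood at 14.97 and 15.02 at rest and 9.59 and 9.12 with LPS and fell by 5.64 ± 0.19 (adjusted p = 0.000535). The receptor genes Vipr1, for vasoactive intestinal peptide, Gpr146 and the chemokine receptor Ccr6 changed by -5.53 ± 0.24 (-1.80 by the other probe), -5.16 ± 0.31 and -5.05 ± 0.19. Among the other large falls were the mRNA decay factor Zfp36l2 (-4.30 ± 0.15), the signalling inhibitors Inpp5d, the phosphatase SHIP1 (-4.38 ± 0.26), and Dok2 (-4.24 ± 0.26), and the transcription factors E2f2 (-4.45 ± 0.14) and Egr2 (-4.24 ± 0.12).

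Where the basal level was not well above background, the fold is a bound. It was computed from the mean of the LPS arrays against the higher of the probe's own basal signal and the lowest signal well above background on that array. For Cxcl9, Nts and Slfn4 the bound equals the plain fold, and no bound allows for the spread between arrays. Cxcl9, a chemokine induced by interferon gamma, reached 13.46 and 13.35 on the LPS arrays, at least 151-fold higher (adjusted p = 0.000418), while its other kept probe gave a log2 change of 5.10. The peptide precursor Nts was at least 70.1-fold higher, the neutrophil chemokine Cxcl1 at least 54.0-fold, Ifi214 at least 41.0-fold and Slfn4 at least 38.1-fold. In the other direction Snph was at least 5.89-fold lower, the ERK phosphatase Dusp7 at least 5.70-fold, Sall2 at least 5.59-fold, Agfg2 at least 5.38-fold and Kazn at least 5.03-fold (-0.29 on the log2 scale by its other probe).

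**Figure D2:**
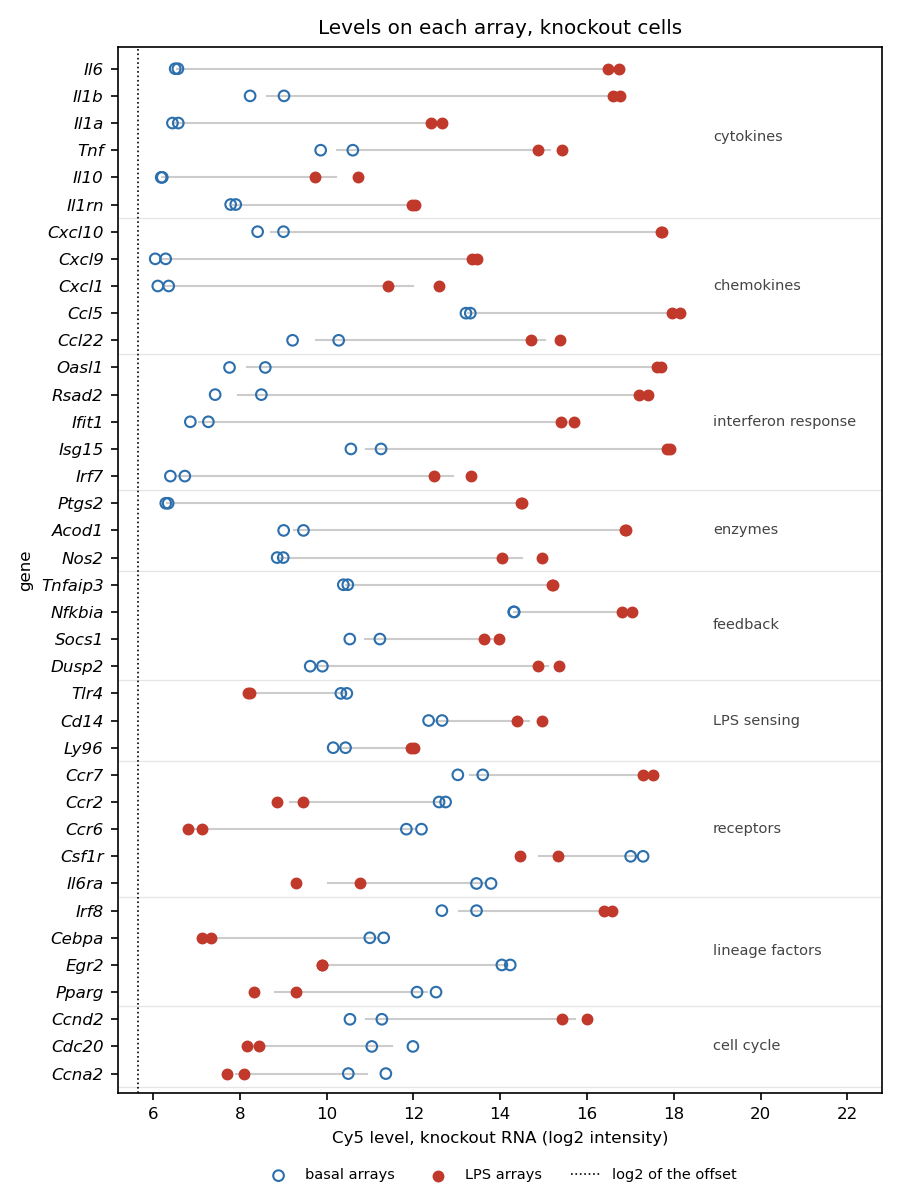
Level (horizontal, log2 Cy5 intensity) of selected genes on each of the 4 arrays of knockout RNA, grouped by role, with open blue circles for the basal and filled red circles for the LPS arrays; the grey line joins the group means and the dotted line is log2 of the offset. The arrays of a condition lie together, as for Il6 at 6.57 and 6.51 against 16.73 and 16.49, and no gene shown has overlapping groups.

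At the LPS receptor the parts moved in opposite directions. Tlr4 stood at 10.47 and 10.33 at rest and 8.19 and 8.23 with LPS and fell by 2.19 ± 0.11 (adjusted p = 0.000837). Cd14, which hands LPS to the receptor, went from 12.66 and 12.35 to 14.96 and 14.38 and rose by 2.17 ± 0.24, and Ly96, which encodes MD-2, rose by 1.68 ± 0.14. Of 24 measured receptor and adaptor genes 11 rose, 6 fell and 7 did not pass, with a median of 0.37. The TRIF-branch kinases Ikbke (3.43 ± 0.17) and Tbk1 (1.64 ± 0.15) rose, while Ticam1, Tirap, Tollip, Traf3, Irak2, Map3k7 and Tab3 did not pass. With basal replicate 1 left out, 6 of these genes rose and 2 fell, and without basal replicate 2, 7 rose and 1 fell.

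Of the 11 other Toll-like receptor genes 4 rose (36.4%) and 3 fell (27.3%), against 21.1% and 24.4% over all genes, and fewer fell without basal replicate 1. Tlr1 (2.64 ± 0.35) and Tlr6 (1.59 ± 0.15), partners of TLR2 for lipopeptides, and Tlr3 (2.20 ± 0.18), for double-stranded RNA, rose. Tlr11, for bacterial and parasite proteins, fell by 1.50 ± 0.21, with 1 of 2 LPS arrays well above background. Tlr2 was at 12.77 and 13.24 at rest and 13.55 and 13.70 with LPS, a change of 0.62 ± 0.19 that did not pass (adjusted p = 0.0567) but passed under 5 of the alternatives, among them the scaling to the 75th percentile.

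NF-kappaB's own genes rose almost as a body, 14 of 15 measured with none lower and a median of 2.24. Nfkbiz, an inducible cofactor for secondary response genes such as Il6, went from 6.90 and 6.69 to 11.69 and 10.72 and rose by 4.41 ± 0.34 (adjusted p = 0.00175). The subunits Nfkb2 (3.13 ± 0.11) and Rel (3.02 ± 0.23) rose, and so did the inhibitors Nfkbia (2.61 ± 0.12) and Nfkbib (2.69 ± 0.13) and the cofactor Bcl3 (2.94 ± 0.21). The kinase subunit Chuk did not pass. Of 17 feedback genes 13 rose and 2 fell. Tnfaip3, the ubiquitin editing enzyme A20, went from 10.38 and 10.49 to 15.19 and 15.22, and Traf1 rose by 4.13 ± 0.15, Birc2 by 3.12 ± 0.16, Birc3 by 2.79 ± 0.16 and Zc3h12a, the RNase regnase-1, by 2.53 ± 0.15. Pdlim2, which marks nuclear RELA for degradation, fell by 2.34 ± 0.25, and Cyld by 0.68 ± 0.11, a call not kept without either basal array and against 0.32 by its other probe.

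Of 18 MAP kinase genes 5 rose and 4 fell, near the 21.1% and 24.4% over all genes, with changes from -2.39 to 2.76. Map3k8, the kinase TPL2 between TLR4 and ERK, rose by 2.76 ± 0.20, Map2k1 by 1.89 ± 0.11 and Mapkapk2 by 1.77 ± 0.17, and Mapk14, p38 alpha, fell by 2.39 ± 0.23 (-1.14 by its other probe). Dusp2 went from 9.90 and 9.62 to 14.87 and 15.35. Dusp16 rose by 2.48 ± 0.10 and Dusp5 by 1.90 ± 0.12, while Dusp3 fell by 2.90 ± 0.19 and Dusp6 by 2.33 ± 0.32. In all 8 of 14 feedback genes rose and 5 fell, and without basal replicate 2 these counts were 4 and 3.

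Immediate-early and AP-1 genes gave 8 rises (32%) and 9 falls (36%) among 25, against 21.1% and 24.4% over all genes. Batf (3.26 ± 0.28), Batf2 (2.84 ± 0.19), the orphan receptors Nr4a3 (2.76 ± 0.23) and Nr4a2 (2.27 ± 0.11) and Junb (1.50 ± 0.11) rose. Egr2 fell from 14.04 and 14.23 to 9.90 on both LPS arrays, and Myc (-2.22 ± 0.28), Egr1 (-2.16 ± 0.37), Klf2 (-1.43 ± 0.12) and Klf4 (-1.27 ± 0.15) fell with it. Among mRNA decay factors, Zfp36 (1.45 ± 0.14), the tristetraprolin gene that destabilises cytokine messages, and Arid5a (2.90 ± 0.11), which stabilises Il6 mRNA, both rose, with 7 of 16 up and 3 down. Without basal replicate 2 the 2 lists counted 5 rises and 6 falls, and 3 rises and 1 fall.

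Of 23 measured genes for pro-inflammatory cytokines 21 rose and none fell, with a median of 2.78. Only Lif and Ltb did not pass. After Il6 the largest rise was that of Il1b, at 8.24 and 9.02 at rest and 16.60 and 16.76 with LPS (8.05 ± 0.28), then Tnfsf15, also called TL1A (6.82 ± 0.39), and Il1a (6.02 ± 0.14). Tnf stood at 9.86 and 10.60 at rest and 15.42 and 14.88 with LPS and rose by 4.91 ± 0.32, 30.2-fold (adjusted p = 0.00128). The 2 chains of interleukin 27, Il27 (3.44 ± 0.25) and Ebi3 (2.98 ± 0.13), rose together, and Il12a was at least 4.68-fold and the interleukin 1 family member Il1f6 at least 5.73-fold higher. The growth factor genes Csf2, at least 2.04-fold higher, and Csf3, at least 2.06-fold, and Il23a, at least 4.12-fold, passed only while both basal arrays were in the fit.

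The anti-inflammatory genes rose beside them, 10 of 18 up and 5 down. Il10 was not well above background at rest, at 6.19 and 6.21, and reached 9.74 and 10.71 with LPS, at least 16.3-fold higher (adjusted p = 0.00204). Il1rn, the antagonist of interleukin 1, went from 7.79 and 7.91 to 11.97 and 12.04. Il18bp, which binds interleukin 18, rose by 2.91 ± 0.18, and Socs3, an inhibitor of STAT3 signalling, by 2.18 ± 0.38 (not called without basal replicate 1). The falls were those of the TGF-beta receptor genes Tgfbr1 (-2.87 ± 0.19) and Tgfbr2 (-2.92 ± 0.28), the glucocorticoid-induced factor Tsc22d3 (-2.74 ± 0.30), Trem2 (-1.61 ± 0.25) and Gpnmb (-0.77 ± 0.12), and the calls of Trem2 and Gpnmb were lost without basal replicate 1 and under scaling to the 75th percentile, and that of Trem2 also without basal replicate 2. That list counted 3 falls without basal replicate 1.

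Chemokine genes rose in 11 of 15 CC members, with 1 lower, and in 8 of 12 CXC and CX3C members, with none lower. Ccl5, which recruits T cells and monocytes, stood at 13.21 and 13.31 at rest and 17.95 and 18.13 with LPS (4.78 ± 0.12). Ccl22, a ligand of CCR4, went from 10.28 and 9.22 to 14.70 and 15.38, and the monocyte chemokines Ccl2 and Ccl7 rose by 2.18 ± 0.19 and 3.35 ± 0.14. The neutrophil chemokine Cxcl2 went from 6.59 and 6.60 to 11.73 and 10.91, and Cxcl3 from 6.95 and 6.79 to 11.56 and 11.48. Ccl6 fell by 0.64 ± 0.11, a call that ended without either basal array and under scaling to the 75th percentile, and Ccl17, Ccl25, Ccl28, Cxcl12, Cxcl14, Pf4 and Ppbp did not pass.

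Of 19 chemokine receptor genes 6 rose (31.6%) and 5 fell (26.3%), against 21.1% and 24.4% over all genes. Ccr7, which guides cells to lymph nodes, stood at 13.60 and 13.02 at rest and 17.30 and 17.52 with LPS and rose by 4.10 ± 0.23. The formyl peptide receptors Fpr1 (4.50 ± 0.28) and Fpr2 (4.61 ± 0.48) and the decoy-like receptor Ccrl2 (4.51 ± 0.12) rose. Ccr2, which brings monocytes out of the marrow, went from 12.59 and 12.74 to 9.45 and 8.86, and Ccr6 from 12.19 and 11.84 to 7.13 and 6.80. Cxcr4 fell by 2.23 ± 0.21 and Ccr1 by 1.38 ± 0.17.

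Among 23 cytokine receptor genes 8 rose (34.8%) and 7 fell (30.4%), against 21.1% and 24.4% over all genes. Il6ra, the receptor for the most induced cytokine, went from 13.79 and 13.45 to 9.29 and 10.77 and fell by 3.59 ± 0.51 (adjusted p = 0.00714). Ifngr1, the ligand-binding chain for interferon gamma, fell by 2.69 ± 0.11, Il18r1 by 2.84 ± 0.18 (-0.55 by its other probe, and above background on 1 of 2 LPS arrays) and Csf1r by 2.26 ± 0.32. Il2rg, the common gamma chain, rose by 1.97 ± 0.15, Tnfrsf1b by 1.55 ± 0.21 and Il15ra by 1.30 ± 0.14 (3.52 by its other probe). For GM-CSF's own receptor, Csf2ra changed by -0.65 ± 0.12, a call that ended without either basal array, and Csf2rb by -0.68 ± 0.21 (adjusted p = 0.0557), or -0.95 and past the test without LPS replicate 2. Leaving out basal replicate 1, 5 receptor genes rose and 5 fell, and leaving out basal replicate 2, 3 rose and 6 fell.

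Interferon genes themselves rose from background. Ifnb1 was not well above background at rest (5.97 and 6.02) and stood at 11.55 and 9.37 with LPS, at least 20.8-fold higher (adjusted p = 0.0102). The LPS arrays lay far apart, and the call ended without either basal array. Ifng was at least 13.3-fold higher. Of 13 measured interferon and IRF genes 9 rose and none fell, with Irf7 going from 6.73 and 6.40 to 12.49 and 13.32, Irf8 rising by 3.44 ± 0.29 and Irf1 by 2.50 ± 0.20, while Irf3, Irf4, Irf5 and Ifna2 did not pass.

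All 37 measured interferon-stimulated antiviral genes rose, from 1.68 to 9.49 with a median of 4.77, and 35 of them by more than 2-fold in treat. Without basal replicate 2, 36 passed. Ifit1, which binds foreign RNA ends, stood at 7.27 and 6.86 at rest and 15.70 and 15.40 with LPS, and Isg15, a ubiquitin-like modifier, at 11.25 and 10.56 at rest and 17.84 and 17.91 with LPS. Cmpk2 rose by 8.31 ± 0.29, Ifit2 by 7.96 ± 0.20 and Ifit3 by 7.79 ± 0.42, and the RNA sensors Ifih1, which encodes MDA5, by 5.46 ± 0.24, Dhx58 by 4.89 ± 0.23 and Ddx58, which encodes RIG-I, by 4.39 ± 0.19. Oasl1, Rsad2 and Ifit3 were among those higher on basal replicate 1 than on basal replicate 2, a gap far below their rise.

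The GTPases that attack vacuoles of intracellular microbes followed. Of 16 measured GBP and IRG genes 15 rose, with a median of 3.35, and only Gbp8 did not pass. Gbp5 went from 10.43 and 9.87 to 15.88 and 15.93 (5.76 ± 0.21), and Igtp (4.85 ± 0.18), Irgm1 (4.50 ± 0.19) and Irgm2 (4.45 ± 0.20) rose alike. Of 22 STAT and SOCS genes 12 rose and 2 fell, among the rises Stat4 (3.25 ± 0.20), Socs1 (2.92 ± 0.27) and Stat5a (2.68 ± 0.23).

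Cytosolic sensors and inflammasome genes rose in 14 of 21 cases and fell in 4. Casp4, the mouse caspase-11 that binds LPS inside the cell, stood at 12.18 and 12.07 at rest and 15.74 and 16.14 with LPS and rose by 3.82 ± 0.17. The DNA sensor gene Ifi204 rose by 3.87 ± 0.37. The shared adaptors went down: Mavs, which relays RIG-I and MDA5, fell by 2.07 ± 0.17, Sting1 by 1.39 ± 0.17 and Pycard, the inflammasome adaptor ASC, by 1.00 ± 0.15, although the call of Pycard ended under scaling to the 75th percentile. Nlrp1b fell by 2.01 ± 0.11, and its other kept probe gave a change of 0.46.

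**Figure D3:**
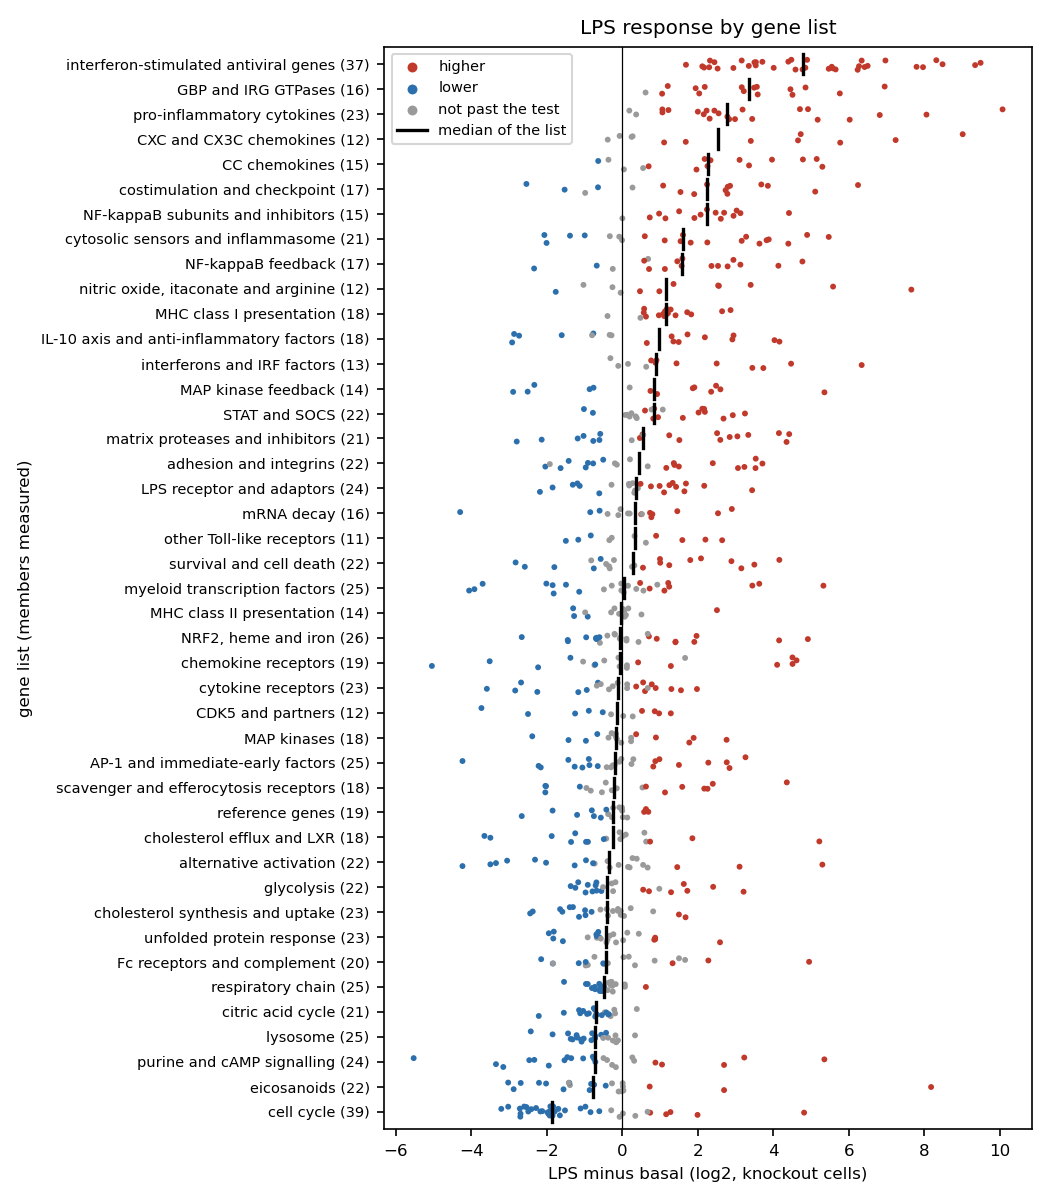
Change with LPS (horizontal, log2, knockout cells) of every measured member of 43 gene lists, ordered by their median, which the black bar marks. Red points rose, blue points fell and grey points did not pass the limma test; antiviral genes lie at the top with a median of 4.77 and cell cycle genes at the bottom with -1.85.

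Antigen presentation by class I rose in 16 of 18 genes, with none lower and a median of 1.14. The peptide transporter Tap1 went from 8.35 and 8.20 to 11.20 and 11.07, and Tapbpl (2.64 ± 0.16), Tapbp (1.82 ± 0.18) and the immunoproteasome subunit Psmb9 (1.72 ± 0.21) rose. Only 10 passed without basal replicate 1 and 6 without basal replicate 2, with medians of 1.25 and 1.11. Class II genes gave 1 rise and 3 falls among 14, with a median of -0.04. H2-Eb2 rose by 2.50 ± 0.30, while Cd74, Ciita, H2-Aa, H2-Ab1 and H2-Eb1 did not pass. The falls of H2-DMa, H2-DMb1 and Marchf1 (-0.92 to -1.31, with 0.08 by the other probe of Marchf1) were not kept without either basal array, and under scaling to the 75th percentile the list counted 5 rises and 1 fall.

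Costimulatory genes rose in 12 of 17 cases. Cd40, which receives T cell help, stood at 10.83 and 10.56 at rest and 16.84 and 17.03 with LPS and rose by 6.24 ± 0.15, 75.6-fold (adjusted p = 0.000418). Cd70 went from 7.18 and 7.30 to 12.60 and 12.10, Slamf1 rose by 3.85 ± 0.20, Tnfsf4, the OX40 ligand, by 3.68 ± 0.52, and Cd86 by 1.90 ± 0.21. Cd274, which encodes the checkpoint ligand PD-L1, rose by 2.79 ± 0.12, and Cd200r1, an inhibitory receptor, fell by 2.54 ± 0.17. Cd80 depends on the probe: the brighter one gave -0.65 ± 0.10 and the other 3.13, and the fall was not called without either basal array.

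Enzymes that mark inflammatory macrophages stood among the strongest rises. Nos2, the inducible nitric oxide synthase, reached 14.04 and 14.97 on the LPS arrays (5.58 ± 0.33), and Acod1, which makes itaconate, went from 9.01 and 9.47 to 16.87 and 16.91. The arginine transporter Slc7a2 (3.40 ± 0.16) and Gch1 (2.54 ± 0.21), for the nitric oxide synthase cofactor, rose, and Kynu rose (2.55 ± 0.11) while Kmo of the same tryptophan pathway fell by 1.77 ± 0.19. Arg1 and Ido1 did not pass the filter on dim probes.

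Eicosanoid genes fell in 11 of 22 cases, rose in 3 and did not pass in 8. Ptgs2, the inducible cyclooxygenase COX-2, was at 6.35 and 6.29 at rest and 14.49 and 14.51 with LPS and rose by 8.18 ± 0.10, 289-fold (adjusted p = 0.000274), with 1 of its 2 basal arrays well above background. Its constitutive counterpart Ptgs1 went from 12.02 and 12.57 to 9.89 and 8.64 and fell by 3.03 ± 0.46 (not called without basal replicate 2). Ptger4 rose by 2.69 ± 0.17, and the prostacyclin receptor gene Ptgir changed by -2.21 ± 0.11. The counts were 2 and 5 without basal replicate 1, and without basal replicate 2 they were 2 and 4. Ptges, the prostaglandin E synthase, changed by -0.28 ± 0.18 by its brighter probe and 2.32 by its other.

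Receptors for adenosine, nucleotides and cAMP-coupled signals were more often lower, 13 of 24 against 5 higher. Adora2a went from 8.11 and 8.05 to 13.39 and 13.47, a rise of 5.35 ± 0.11, while Adora3 fell by 3.35 ± 0.37 and the nucleotide receptor P2ry6 by 3.16 ± 0.32. The phosphodiesterase Pde4b rose by 3.23 ± 0.28, and the adenylyl cyclase Adcy7 fell by 2.47 ± 0.15. The falls numbered 8 without basal replicate 1 and 9 without basal replicate 2.

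Cell cycle genes fell in 29 of 39 cases, with a median of -1.85, the lowest of the lists. Cdc20, the activator of the anaphase complex, went from 11.04 and 11.99 to 8.45 and 8.16, and Ccna2 from 10.50 and 11.37 to 8.10 and 7.71. Plk1 (-2.72 ± 0.36), Tk1 (-2.71 ± 0.41) and Ccnb1 (-2.70 ± 0.38) fell with them, and all these genes were lower on basal replicate 1 than on basal replicate 2. The 5 rises were the cyclin Ccnd2, from 10.54 and 11.27 to 15.43 and 16.01 (4.81 ± 0.33), the cell cycle inhibitors Cdkn1a (1.99 ± 0.15) and Cdkn1b (1.16 ± 0.12), Tyms (1.27 ± 0.11) and Cdk6, whose rise of 0.73 ± 0.17 was not kept without either basal array. In the same cultures the pro-survival genes Cflar (4.16 ± 0.21) and the pro-death genes Fas (2.89 ± 0.26), Mlkl (3.15 ± 0.20) and Bcl2l11 (3.49 ± 0.32) rose, and Bcl2 (-2.59 ± 0.15) and Bmf (-2.83 ± 0.28) fell, among 10 rises and 5 falls in 22 genes of survival and death. Without either basal array 7 of that list rose and 2 fell.

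The medians of the energy metabolism lists moved by small steps, though single genes moved further, and the list counts rest on the scaling and the basal pair. Of 21 citric acid cycle genes 16 fell and none rose, with a median of -0.69 and Idh1 at -1.12 ± 0.18, and of 25 respiratory chain genes 13 fell and 1 rose, with a median of -0.48 and Ndufs7 at -1.55 ± 0.13. Scaled to the 75th percentile, 5 and 2 of them fell. Without basal replicate 1 these counts were 5 and 3, and without basal replicate 2 they were 2 and 1. Glycolysis gave 7 rises and 10 falls among 22 (7 and 3 after scaling to the 75th percentile): the glucose transporter Slc2a6 (3.21 ± 0.17), Pfkfb3 (2.40 ± 0.27), Hk3 (1.72 ± 0.19) and Hk2 (1.29 ± 0.14) rose, and Tpi1 fell by 1.37 ± 0.22. For scale, the 19 usual reference genes had a median of -0.25 and changes from -2.67 to 0.69. Of them 3 were higher and 7 lower, and 8 higher and 3 lower after scaling to the 75th percentile. Without basal replicate 1, 5 glycolysis genes rose and 5 fell and 2 reference genes fell, and without basal replicate 2 these counts were 5, 2 and 1, with no reference gene higher either time.

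Lysosome and lipid genes fell more often than they rose. Of 25 lysosome genes 17 fell and none rose, with a median of -0.73. Tfeb, the transcription factor of the pathway, went from 9.96 and 9.82 to 7.38 and 7.54 (-2.43 ± 0.12), and the protease Ctsd (-1.37 ± 0.10) and the lipase Lipa (-1.44 ± 0.15) fell. Scaled to the 75th percentile, 8 fell and 1 rose, and without basal replicate 1 or 2, 5 and 8 fell. Cholesterol synthesis and uptake counted 10 falls and 2 rises among 23, with Dhcr7 at -2.44 ± 0.24, Mvk at -1.65 ± 0.11 and Mvd at -1.59 ± 0.11 against Idi1 at 1.50 ± 0.11. Ch25h, which makes the oxysterol 25-hydroxycholesterol, went from 7.73 and 9.26 to 13.52 and 13.90 (5.21 ± 0.53), while Scd2 (-3.66 ± 0.17), the nuclear receptor Pparg (-3.50 ± 0.37) and the cholesterol exporter Npc1 (-1.36 ± 0.12) fell, among 3 rises and 8 falls in 18 genes of cholesterol efflux and its regulators. Without basal replicate 1 the falls of synthesis and efflux genes numbered 6 and 5, and without basal replicate 2 they numbered 6 and 4.

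The transcription factors of the myeloid lineage gave 8 rises and 8 falls among 25, 32% each against 21.1% and 24.4% over all genes. Cebpa, a factor of early myeloid cells, went from 11.31 and 11.00 to 7.13 and 7.34 (-3.92 ± 0.16). Rara fell by 3.70 ± 0.15 and Runx1 by 2.02 ± 0.24. Gfi1 went from 7.27 and 8.08 to 12.54 and 13.45 (5.32 ± 0.42), Tcf4 rose by 3.62 ± 0.11 and Irf8 from 13.46 and 12.66 to 16.40 and 16.59. Genes of alternative activation fell in 9 of 22 cases (3 without basal replicate 2) and rose in 3: Egr2, Pparg and the mannose receptor Mrc1 (-2.02 ± 0.32, not called without basal replicate 2) fell, Ccl22 and Ccl24 (3.10 ± 0.39) rose, and Retnla changed by 0.67 ± 0.69 (adjusted p = 0.465), or 1.65 and past the test without basal replicate 1.

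Surface and secreted effectors closed the response. Among 22 adhesion genes 10 rose and 7 fell: Vcam1 (3.71 ± 0.24), Sdc4 (3.53 ± 0.18), Itga4 (3.52 ± 0.25), Icam1 (3.23 ± 0.12) and Itga5 (3.06 ± 0.16) rose, and Itgb5 (-2.04 ± 0.26) and Itga6 (-1.64 ± 0.14) fell. Of 18 scavenger and efferocytosis receptors 7 rose (38.9%) and 4 fell (22.2%), against 21.1% and 24.4% over all genes. Clec4e, the receptor Mincle, went from 10.47 and 10.95 to 15.21 and 14.91, and Scarb1 changed by -2.04 ± 0.20. Fc receptor and complement genes counted 3 rises and 5 falls among 20, near the shares over all genes, and 5 rises and 2 falls after scaling to the 75th percentile. Cfb (4.94 ± 0.63) and Fcgr4 (2.28 ± 0.21) rose, and Fcgr3 fell by 1.85 ± 0.19. Proteases and their inhibitors rose in 12 of 21 cases and fell in 7, among them Mmp25 (4.42 ± 0.13) and Timp1 (3.05 ± 0.26) up and Timp2 (-2.80 ± 0.37, -0.56 by its other probe) and Plau (-2.14 ± 0.25) down. Without basal replicate 1 the falls numbered 4 for adhesion, 3 for Fc receptors and complement and 3 for proteases, and without basal replicate 2 they numbered 3, 2 and 3.

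Of 26 genes for iron, heme and NRF2 targets 8 rose and 8 fell, 30.8% each against 21.1% and 24.4% over all genes. Their changes ran from -2.67 to 4.91. The iron hormone Hamp was at least 30.1-fold higher, and the siderophore binder Lcn2 went from 8.91 and 9.58 to 12.97 and 13.82. Sod2 rose by 1.90 ± 0.20, and Gclc fell by 1.45 ± 0.10. The counts became 11 and 4 after scaling to the 75th percentile, and fewer passed in each direction without either basal array. Of 23 genes of the unfolded protein response 4 rose (17.4%) and 8 fell (34.8%), against 21.1% and 24.4% over all genes. Ppp1r15a rose by 2.58 ± 0.12, Xbp1 changed by -1.58 ± 0.13 and Herpud1 by -1.95 ± 0.12, while Ddit3 did not pass. The falls of that list numbered 4 without either basal array.

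Of CDK5 and its partners, 4 of 12 measured genes rose (33.3%) and 5 fell (41.7%), against 21.1% and 24.4% over all genes. Cables1, a CDK5 binding partner, went from 11.90 and 11.27 to 8.04 and 7.65 (-3.73 ± 0.27), and the related kinase Cdk18 from 14.10 and 14.15 to 11.83 and 11.41. Cdk5 itself stood at 10.24 and 10.11 at rest and 9.10 and 9.48 with LPS and fell by 0.89 ± 0.17 (adjusted p = 0.0146). That call was lost without either basal array, and without basal replicate 1 the group counted 0 rises and 2 falls, without basal replicate 2 it counted 1 and 2.

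The LPS response of knockout cells was set against that of wildtype cells within each array, as the change of the knockout over wildtype ratio from basal to LPS arrays. The dyes were not swapped. A constant dye effect cancels in this difference only where a gene has signal under both conditions, and levels of each channel are given to show its own response, not to compare the channels. In limma, 60 of the 21239 genes responded higher in knockout cells (0.282%) and 22 lower (0.104%), out of 2316 at an unadjusted p under 0.05. These calls rest on the LPS pair: without LPS replicate 1, 5 genes passed, and without LPS replicate 2 none did, with 1964 at an unadjusted p under 0.05. The genes described next were named for the size of this difference, so the sizes are a selection. Genes were also kept by Cy5 signal alone, so a gene with signal only in the wildtype channel could not be counted or named. The 2 directions were thus not filtered alike. With no filter on dim probes, over 32349 genes, 94 responded higher in knockout cells and 43 lower.

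Among the cytokine genes, Il10 passed the test with a fitted difference of 1.90 ± 0.093 (adjusted p = 0.00207). Its basal level was not well above background in either channel, so the fitted responses are no measured folds, the difference rests on the LPS arrays, and a dye effect does not cancel in it. In the wildtype channel Il10 was at 6.19 on both arrays at rest and at 7.84 and 8.80 with LPS. The same limit holds for Il1f6, with a fitted difference of -1.18 ± 0.12 that was not called without basal replicate 2. Cxcl3, with signal under both conditions, rose less in knockout cells, by 4.65 against 5.81 (difference -1.16 ± 0.13). For the other cytokine genes named, Il6, Il1b, Il1a, Tnf, Il27, Ebi3, Il12a and Il1rn, the difference lay between -0.88 and 0.50 and did not pass, which does not show equal responses.

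Of the 37 antiviral genes 6 responded higher in knockout cells and none lower, and the median response was 4.77 against 4.22 in wildtype cells. They were Xaf1 (2.29 ± 0.12), Oasl2 (1.54 ± 0.17), Oas2 (1.14 ± 0.12), Oasl1 (1.05 ± 0.093), Ifi44 (1.04 ± 0.12) and Oas1a (0.82 ± 0.097), with adjusted p from 0.0023 to 0.0401 in limma, and the call of Oas1a also ended without either basal array. The basal arrays enter here: Oasl2 was at 9.47 and 8.08 in the knockout channel and 10.54 and 9.65 in the wildtype channel at rest, and with LPS at 15.06 and 15.32 in the former and 14.84 and 15.10 in the latter. Xaf1 rose by 4.47 ± 0.23 in knockout and by 2.18 in wildtype cells, and over all its probes the difference was 0.96.

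Ccr6 and Csta2 gave the largest negative differences. Ccr6, the receptor for CCL20, fell by 5.05 in knockout and by 1.56 in wildtype cells (difference -3.49 ± 0.15, adjusted p = 0.00141). In the knockout channel it went from 12.19 and 11.84 to 7.13 and 6.80. In the wildtype channel it went from 8.28 and 7.94 to 6.51 and 6.59. The latter levels are near that of a gene without signal, which limits how far it could fall. With LPS both channels were low, so the difference rests mostly on the basal arrays. Csta2, a stefin that inhibits cathepsins, was at 7.61 and 12.78 at rest and 9.61 and 9.19 with LPS in the knockout channel. Its basal arrays thus enclosed both LPS arrays, and its change of -0.79 ± 1.72 did not pass (adjusted p = 0.73), turning to 1.79 without basal replicate 2. In the wildtype channel it was at 7.87 and 12.46 at rest and at 13.75 and 12.84 with LPS, and the difference was -3.92 ± 0.23.

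Cdk5r1 itself rose in wildtype cells by 1.96 ± 0.22 while its change in knockout cells was 0.02 ± 0.29, a difference of -1.94 ± 0.13 (adjusted p = 0.00564). Xylt2, which starts heparan sulfate chains, fell by 1.49 in knockout and changed by 0.31 in wildtype cells (-1.80 ± 0.14, but -1.13 over all its probes, the other of which gave -0.07 in knockout cells). The adenosine receptor Adora2b changed by -0.50 (-0.87 and past the test without LPS replicate 2) against 1.00 in wildtype cells (-1.50 ± 0.13), with 0.06 in knockout cells by its other probe, while P2ry6 fell less in knockout cells (0.83 ± 0.10). Havcr2, the checkpoint receptor TIM-3, rose by 1.08 in knockout and changed by -0.40 in wildtype cells (1.48 ± 0.097), and Bcl2l11, the death gene BIM, rose more in knockout cells (0.83 ± 0.10). The calls of Bcl2l11 and P2ry6 also ended without either basal array. Tmtc1, Spo11, Ttc36, Olfr1303 and Ntn5 rose in knockout cells from a level not well above background, to between 7.82 and 9.36. In the wildtype channel they were at 6.70 or below on every array. These genes passed the filter on dim probes through the knockout LPS arrays alone. Genes with signal in wildtype LPS cells only could not enter, so this contrast of the channels is partly set by the selection. Tmtc1 gave only 0.23 in knockout cells by its other kept probe.

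**Figure D4:**
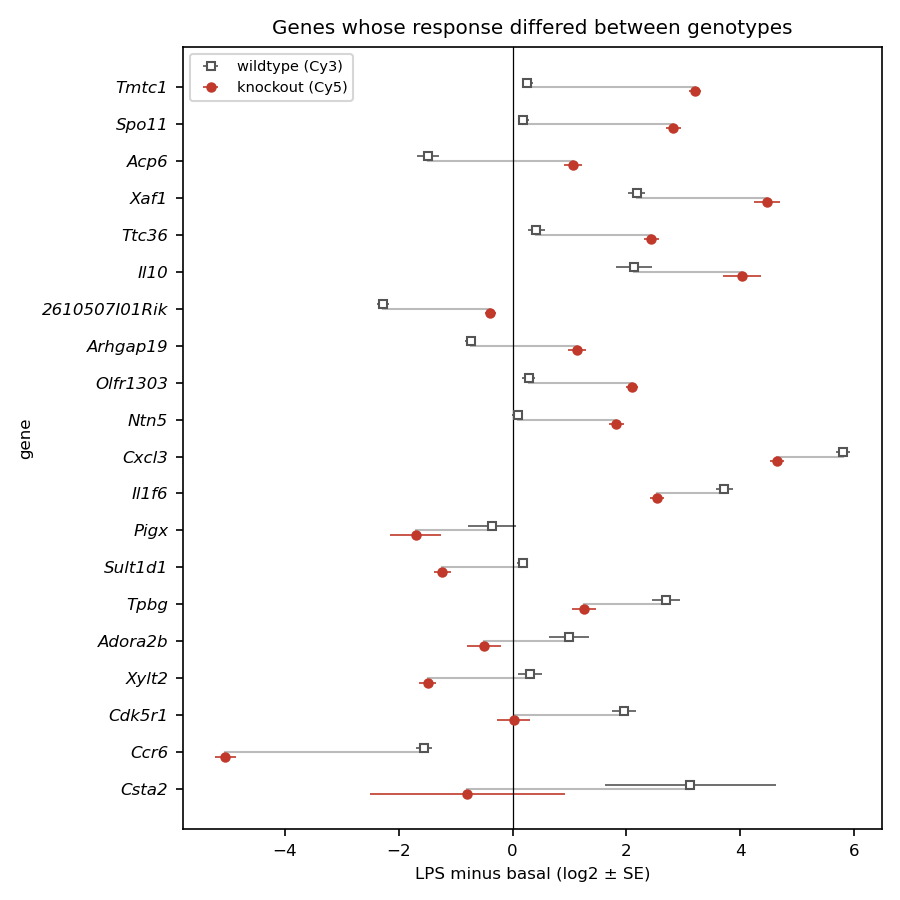
Change with LPS (horizontal, log2 ± SE, n = 2 arrays per condition) in knockout cells (red circles, Cy5) and wildtype cells (open squares, Cy3) for the 10 genes with the largest positive and the 10 with the largest negative difference of responses. Ccr6 moves from -1.56 in wildtype to -5.05 in knockout cells, the responses of Il10, Il1f6, Tmtc1, Spo11, Ttc36, Olfr1303 and Ntn5 start where basal signal did not clear the background, and the wide error bars of Csta2 come from basal arrays at 7.61 and 12.78.

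Promoter letters were counted for the 11782 tested genes with a RefSeq promoter, over the 250 bases before the start, with any of several starts counting. The interferon element core was found in 10.8% of the 581 promoters of genes over 2-fold higher, in 1.33% of the 451 over 2-fold lower and in 3.44% of all. Among the antiviral genes 10 of 28 promoters held it, which is 35.7%, and none of the 16 promoters of pro-inflammatory cytokine genes did. A TATA box (TATAAA) was found in 13.8% of promoters of genes over 2-fold higher, 7.1% of those lower and 10.2% of all, and in 6 of 16 cytokine promoters. The AP-1 site (TGANTCA) was found in 9.29%, 6.65% and 6.09%, and the E-box (CACGTG) in 5.85%, 12.2% and 9.2%. The loose kappaB core was in 64.5%, 67.6% and 62.4% and the CRE (TGACGTCA) in 2.41%, 2.66% and 2.72%. By list, the kappaB core was in 10 of 11 promoters of NF-kappaB genes (90.9%) and 8 of 16 of cytokine genes (50%), and the CRE in 1 and 0 of them. A match is a description of letters, and its absence says only that these letters are not in this window.

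**Figure D5:**
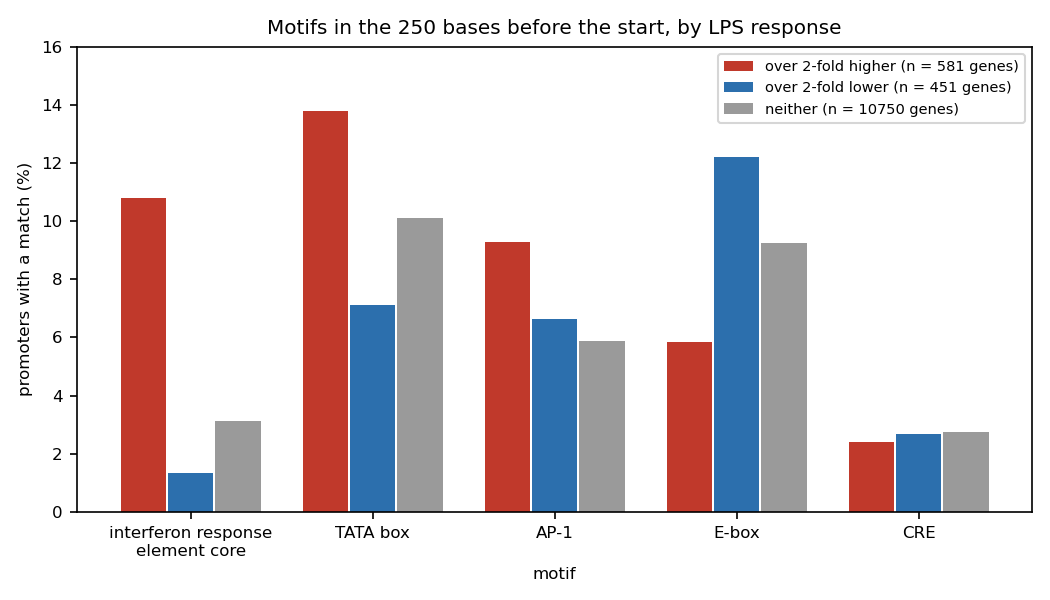
Share of promoters with a match (vertical, percent) for 5 motifs (horizontal) among genes over 2-fold higher (red, 581), over 2-fold lower (blue, 451) or neither (grey, 10750) with LPS in knockout cells. The interferon element core is at 10.8%, 1.33% and 3.13%, while the CRE is at 2.41%, 2.66% and 2.74%; the kappaB core, above 60% in each class, is not drawn.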

How the data were processed

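The deposited scanner files hold median foreground and background intensity per spot and channel, read with Agilent Feature Extraction 11.5.1.1 per the file headers (9.3.2.1 per the submitters' processing notes), and the authors' deposited value table holds log2 ratios with their scale taken from the scanner values. Intensities were corrected with normexp (offset 50), loess-normalized within arrays with control and outlier spots at weight 0, averaged over spots of a probe and set across arrays with Aquantile in limma 3.58.1 (R 4.3.3). The Cy5 level is A + M/2. Medians were used in place of means. Probes well above background in Cy5 on at least 2 of 4 arrays were kept, with the brightest per gene, and tested with lmFit and eBayes, with Benjamini-Hochberg adjustment at 0.05, and with treat at a log2 threshold of 1. Responses of the genotypes were compared on M values, LPS minus basal. The pipeline was tested on simulated data. Symbols came from RefSeq accessions and matched 27470 of 39366 probes with a value on every array, and other genes are not analysed here by name.

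Named were, of genes with a symbol past the test, the 15 largest rises and falls with signal well above background on every array, no overlap of conditions and other probes moving the same way, and the 5 largest bounds in each direction. Also named were the key genes, up to 5 changes in each direction and 3 smallest changes of each list, and the 10 largest differences of response in each direction. Genes given as not passing, cell markers and Havcr2, Oas2, Oasl2, Oas1a and Ifi44 were chosen after their values were seen. The lists and the comparisons were chosen with earlier results of these data known. Alternatives changed the scaling, background, filter, probe summary and fit, and left out each array in turn.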

Additional observations from a re-analysis of the deposited data

Results flagged for a closer look

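The following genes passed limma's test of a different LPS response in knockout and wildtype cells, and values are knockout minus wildtype on the log2 scale. Higher in knockout cells were Tmtc1 (2.95), Spo11 (2.63), Acp6 (2.55), Xaf1 (2.29), Ttc36 (2.02), Il10 (1.90), 2610507I01Rik (1.89), Arhgap19 (1.87), Olfr1303 (1.82), Ntn5 (1.73), Oasl2 (1.54), Havcr2 (1.48), Oas2 (1.14), Oasl1 (1.05), Ifi44 (1.04), Bcl2l11 (0.83), P2ry6 (0.83) and Oas1a (0.82). Lower were Csta2 (-3.92), Ccr6 (-3.49), Cdk5r1 (-1.94), Xylt2 (-1.80), Adora2b (-1.50), Tpbg (-1.44), Sult1d1 (-1.41), Pigx (-1.34), Il1f6 (-1.18) and Cxcl3 (-1.16). For Il10, Il1f6, Tmtc1, Spo11, Ttc36, Olfr1303 and Ntn5 the basal level was not well above background in either channel, so these differences rest on the LPS arrays and a dye effect does not cancel in them. All of these genes passed the filter on dim probes through the knockout LPS arrays alone.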

How the results depend on the processing

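With the 4 arrays left out in turn, the genes that rose numbered 1983 to 4426 and those that fell 2082 to 5189. Past 2-fold they numbered 469 to 1123 and 200 to 971, the low ends without a basal array. Scaled to the 75th percentile, 1551 genes were over 2-fold higher and 1047 lower, and under median centring of Cy5 alone 1048 were lower. With the replicate block, 3628 genes rose and 4405 fell, but the numbers pair nothing beyond the label: deviations of same-numbered arrays correlated at -0.084. The 82 genes with a different response became 231 under median centring of the ratios, 137 without the filter on dim probes, 50 with the replicate block, 34 with the ratio of the processed signals and 35 in the authors' deposited value table, and 0 to 184 with an array left out (0 without LPS replicate 2, 5 without LPS replicate 1, 184 without basal replicate 1). Of the 28 genes named for such a difference, 20 were not called with the processed signals or in the authors' table. Of the named changes in knockout cells, 3 turned: Cd80 was 1.24 and Ptges 1.02 over all kept probes, and Csta2 ranged from -3.38 without basal replicate 1 to 1.79 without basal replicate 2. The causes were not tested. Dim genes lie near the offset, so their folds are compressed.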
